A study of Mus musculus with 6 samples.

Results

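The mouse genes whose symbols begin with Zfp and a digit are a naming class of zinc finger genes, and 163 of the 280 that have a named probe on the array were detected. A gene was taken as detected if a probe had a detection p-value under 0.05 on 3 or more of the 6 arrays, and it is shown by its brightest detected probe. The members were thus chosen by their detection values on these arrays, and for 3 of them, described with their values, detection itself rested on the VPA arrays alone. The arrays measured hematopoietic stem and progenitor cells sorted from the bone marrow of C57Bl/6 mice by the L-S+K+ surface phenotype. In 3 cultures the cells were exposed for 24 h to 1 mM valproic acid (VPA), an inhibitor of histone deacetylases, and 3 control cultures were kept for 24 h without it. The labels name no genetic change in either group, and all 6 cultures grew in liquid medium with GM-CSF (recombinant, murine), stem cell factor (murine) and fetal calf serum. How many mice gave the cells of a culture is not given in the sources used here. VPA replicate 1 was dimmer than the other arrays and correlated less well with its replicates. The main counts of members are therefore given with and without it. So are the values of named members that moved by over 1.5 times. In bulk RNA, fewer cells of a type and less RNA per cell cannot be told apart.

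Most Zfp proteins carry tandem C2H2 fingers, loops held by a zinc ion between cysteines and histidines that read short stretches of DNA. Many also carry a KRAB domain, through which they bring Trim28 and the histone methyltransferase Setdb1 to chromatin, often at retroelements, with histone deacetylases among the recruited enzymes. The class is a naming convention and not a single pathway. Zfp36 and Zfp36l1 have CCCH fingers that bind AU-rich elements of messenger RNAs and speed their decay, and other members work on ribosomes, splicing or chromosome segregation. Many genes of the class lie in tandem clusters of young, closely related copies, so that a probe may not tell all relatives apart.

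With VPA, 1 of the 163 detected Zfp genes passed the threshold, and for 127 of them the 95% interval left out a 2-fold change in either direction. Zfp365, which encodes a protein also known as DISC1-binding zinc finger protein, rose, and 0 genes fell by limma at an adjusted p of 0.05. Zfp365 was detected on the VPA arrays alone, so the rule that chose the members already required it to differ. Over all 7967 named genes tested, 3.73% passed, 3.41% upward and 0.314% downward. At an unadjusted p under 0.05, 15 members were higher and 8 lower, or 9.2% and 4.91%, against 11.5% and 5.59% of all genes. The median log2 change of the members was -0.007, beside -0.02 over all genes, with 80 members above 0 and 83 below. The middle 50% of members lay between -0.23 and 0.18, and 93 members, 57.1%, had a change of under 0.25 in size, as did 52.6% of all genes. The extremes were 1.51 for Zfp365 and -0.94 for Zfp428. A change of at least 2-fold was fitted for 2 members, Zfp365 and Zfp30, against 3.83% of all genes, and 1 member against 2.85% of all genes had both that size and an adjusted p under 0.05.

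The 95% intervals show how far the arrays bound these changes. For those 127 members, 77.9%, the interval of the log2 change lay inside -1 to 1, which leaves out a change of 2-fold, against 74.7% of all genes. For 51 members, 31.3%, it left out a change of 1.5-fold as well, against 31.6%. In the rank plot of all members the intervals of most genes cross 0. The groups did not overlap in 36 members, 20 with all VPA arrays above the controls and 16 with all below. That is 22.1% of the members, against 27.9% of all genes with groups that did not overlap.

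**Figure D1:**
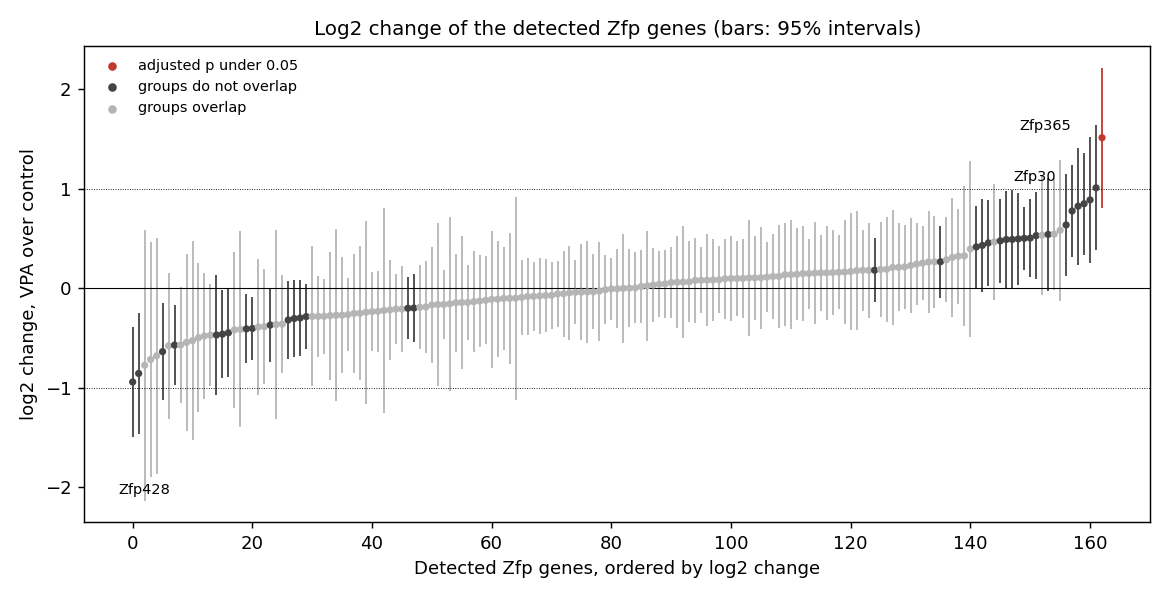
Log2 change of each of the 163 detected Zfp genes, VPA over control, ordered by size, with 95% intervals from limma (n = 3 arrays per group; dotted lines at -1 and 1). Zfp365 at 1.51 is the 1 gene past an adjusted p of 0.05, and the rest of the genes lie between -0.94 (Zfp428) and 1.01 (Zfp30).

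VPA replicate 1 stood apart from the other arrays, and the Zfp values show it. The members had a median raw signal of 165 on it, against 284 and 287 on the other VPA arrays and 295 to 372 on the control arrays. It was the highest or the lowest of the 3 VPA values in 153 members, 93.9%, as in 88.9% of all genes. Set against the control mean, the 163 members spread with an SD of 0.74 log2 units on this array, 0.32 and 0.34 on VPA replicates 2 and 3, and 0.21 to 0.23 on a control array set against the other controls. More than 1 log2 unit above the controls were 13 members on VPA replicate 1 and 1 member on each of the other VPA arrays. More than 1 unit below were 20 members on VPA replicate 1, 0 on VPA replicate 2 and 1 on VPA replicate 3. The array medians of these differences were between -0.05 and 0.10. Across all probes kept, VPA replicate 1 correlated at 0.947 and 0.957 with its replicates, and the control arrays at 0.989 to 0.992 with each other.

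**Figure D2:**
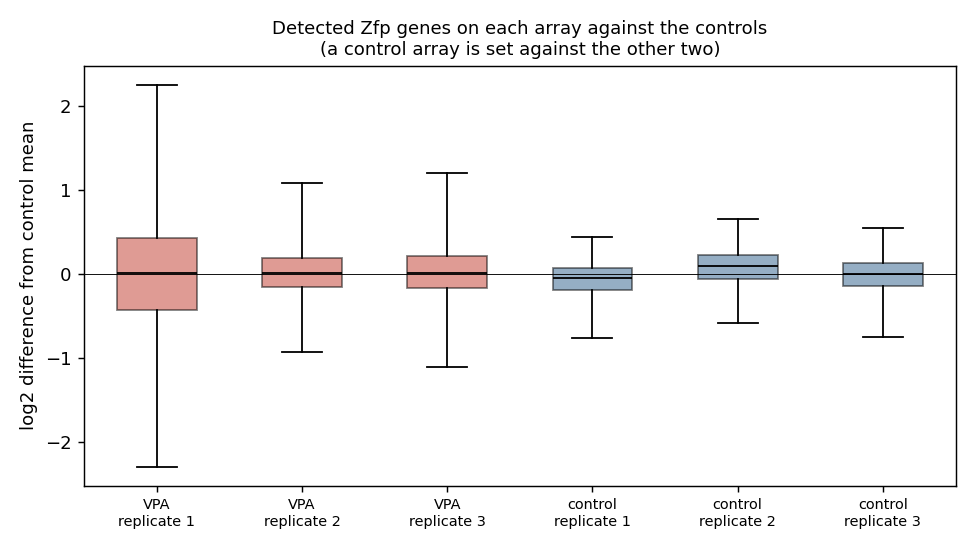
Log2 difference of the 163 detected Zfp genes from the mean of the control arrays, by array (a control array is set against the other controls). Boxes hold the middle 50% of genes with the median as a line, and whiskers reach the lowest and highest gene; VPA replicate 1 is the widest, with an SD of 0.74, against 0.21 to 0.23 for the control arrays.

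Without VPA replicate 1, 7 members passed, 4 higher and 3 lower, which is 4.29% against 7.79% of all genes in the same fit (6.2% higher and 1.59% lower). Zfp365 remained, with a log2 change of 1.15 (adjusted p = 0.002 by limma), and the others were Zfp940, Zfp329 and Zfp661 above and Zfp809, Zfp91 and Zfp428 below. Of these, Zfp365 and Zfp329 were detected on VPA arrays alone, so the rule that chose the members already required them to differ. On the arrays of this fit Zfp809 was detected in control cultures alone. Of the 163 intervals, 154, or 94.5%, then left out a 2-fold change, against 89.9% of all genes, and 100, or 61.3%, left out a 1.5-fold change, against 57.9%. The groups did not overlap in 32 members with VPA above and 27 with VPA below, 36.2% in all, against 44.2% of all genes (23.2% above and 21% below). A change of under 0.25 in size was then fitted for 107 members, 65.6%, against 61.7% of all genes. At an unadjusted p under 0.05, 19 members were then higher and 16 lower, or 11.7% and 9.82%, against 14% and 10.5% of all genes. The 7 genes had the same direction with and without the array, as the plot of both log2 changes shows.

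**Figure D3:**
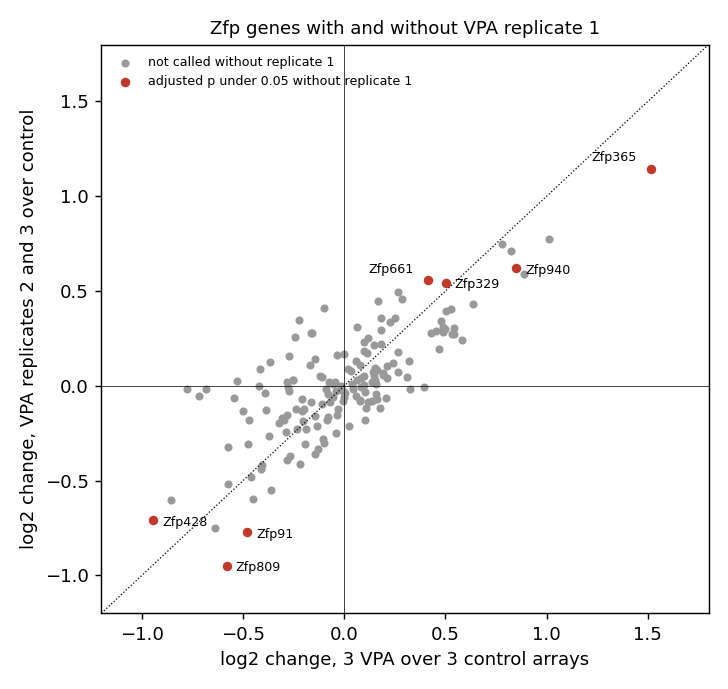
Log2 change of each detected Zfp gene over all 6 arrays (x axis) and without VPA replicate 1 (y axis). The dotted line marks equal values. The 7 genes in red passed an adjusted p of 0.05 by limma without that array, from -0.95 for Zfp809 to 1.15 for Zfp365. On the arrays of that fit Zfp365 and Zfp329 were detected in VPA cultures alone and Zfp809 in control cultures alone.

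Zfp365 had normalized log2 signals of 7.08, 5.91 and 6.04 in VPA cultures, against 4.85, 4.83 and 4.81 in control cultures. All VPA arrays lay above all controls, and VPA replicate 1 was the highest. It was detected on 3 of 3 VPA arrays and 0 of 3 control arrays, so its control level is only a bound, and it was at least 1.69-fold higher with VPA (fitted log2 change 1.51 ± 0.30 SE, adjusted p = 0.0433 by limma). For this bound a control array counts as the dimmest signal that any detected probe had on it, or as the signal of the gene where that was larger. The raw signals were close to background, at 137, 153 and 167 on the VPA arrays and 138, 113 and 125 on the control arrays, and these overlapped between the groups. Without background correction the log2 change was 0.67 (adjusted p = 0.0712), and in the deposited log2 values 0.58 (adjusted p = 0.0775). The call held in 7 of the 16 alternatives that gave a value, over which the adjusted p ran from 0.000125 to 0.187. It was lost when VPA replicate 2, VPA replicate 3 or a control array was dropped, at log2 changes of 1.51 to 1.73 and adjusted p of 0.057 to 0.187, and held without VPA replicate 1.

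The promoter windows of 4 members, from 250 bases before to 50 bases after the start of the gene as RefSeq places it on GRCm38.p6, are printed for their sequence makeup. Zfp365 is shown as the gene that passed, Zfp30 and Zfp940 as near neighbours of each other that both had all VPA arrays above the controls, and Zfp428 as the member with the most negative change. The windows are chr10:67912613-67912912 on the minus strand for Zfp365, chr7:29783718-29784017 on the plus strand for Zfp30, chr7:29853599-29853898 on the minus strand for Zfp940 and chr7:24506837-24507136 on the plus strand for Zfp428. They are printed 5′ to 3′ along the gene, and capitals mark each CG dinucleotide, the site of DNA methylation.
Zfp365: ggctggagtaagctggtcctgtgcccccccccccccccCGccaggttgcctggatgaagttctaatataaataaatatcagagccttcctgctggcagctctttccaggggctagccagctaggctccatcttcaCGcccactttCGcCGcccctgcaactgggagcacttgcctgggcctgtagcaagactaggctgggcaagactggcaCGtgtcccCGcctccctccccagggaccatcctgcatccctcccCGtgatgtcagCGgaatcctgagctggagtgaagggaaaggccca
Zfp30: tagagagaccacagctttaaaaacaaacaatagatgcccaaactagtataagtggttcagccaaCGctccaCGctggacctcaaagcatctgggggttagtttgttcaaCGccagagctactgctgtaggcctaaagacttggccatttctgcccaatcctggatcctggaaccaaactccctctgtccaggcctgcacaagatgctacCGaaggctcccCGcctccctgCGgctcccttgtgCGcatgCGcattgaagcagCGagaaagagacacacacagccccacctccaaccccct
Zfp940: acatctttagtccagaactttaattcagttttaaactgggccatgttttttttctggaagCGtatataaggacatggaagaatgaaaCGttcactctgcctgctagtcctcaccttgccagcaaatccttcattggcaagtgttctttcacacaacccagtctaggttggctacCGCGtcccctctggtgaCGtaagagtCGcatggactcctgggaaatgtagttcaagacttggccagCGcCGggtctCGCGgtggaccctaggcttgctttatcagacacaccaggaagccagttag
Zfp428: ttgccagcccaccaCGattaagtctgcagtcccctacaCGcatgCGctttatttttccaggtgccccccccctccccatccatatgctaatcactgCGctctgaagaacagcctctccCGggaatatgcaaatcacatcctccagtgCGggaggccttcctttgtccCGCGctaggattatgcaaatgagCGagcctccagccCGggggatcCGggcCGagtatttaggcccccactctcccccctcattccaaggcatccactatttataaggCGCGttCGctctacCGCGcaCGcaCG
The Zfp365 window holds 8 CG dinucleotides, that of Zfp30 holds 9, that of Zfp940 holds 10 and that of Zfp428 holds 19. Windows with at least as many made up 82.8%, 80.9%, 79.0% and 55.6% of the 8412 windows of all tested genes, in the same order. A GC box, GGGCGG or its complement CCGCCC, was found 1 time in the window of Zfp365 and 0 times in the other 3 windows. Such a box stood in 62.2% of the windows of all tested genes and in 47.3% of the 165 windows of the 135 detected Zfp genes that the table holds. The Zfp windows had a median of 17 CG dinucleotides (quartiles 11 and 23), against 20 (quartiles 12 and 28) for all tested genes. These counts describe the letters and say nothing of methylation or of factors bound in these cells.

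Another 2 members were detected on all VPA arrays and on 0 control arrays. Zfp30, a KRAB zinc finger gene, had 6.67, 6.10 and 5.82 in VPA cultures, against 5.23, 4.81 and 5.52 in control cultures. The groups did not overlap, and the gene was at least 1.53-fold higher without passing the threshold (fitted log2 change 1.01 ± 0.27 SE, adjusted p = 0.11 by limma). Its raw signals overlapped, at 125, 162 and 158 on the VPA arrays and 163, 112 and 161 on the control arrays. Zfp329 had 5.71, 5.85 and 5.82 in VPA cultures, against 5.29, 5.31 and 5.28 in control cultures. Its normalized replicates differed by little in either group, the bound was at least 1.15-fold, and the adjusted p was 0.113 by limma, or 0.0291 without VPA replicate 1. The raw signals of Zfp329 overlapped too, at 107, 150 and 159 on the VPA arrays and 165, 136 and 151 on the control arrays. The bounds hold on the background-corrected scale alone, since in the deposited log2 values the folds were smaller, 1.49 for Zfp365, 1.29 for Zfp30 and 1.12 for Zfp329. A gene absent from all control arrays entered the list only if all 3 VPA arrays detected it, so Zfp365, Zfp30 and Zfp329 had to differ between the groups. No member was detected on all control arrays and 0 VPA arrays. Of the 160 members detected in both groups, 18 were detected on fewer VPA than control arrays and 5 on fewer control than VPA arrays. By array, 147, 160 and 151 members were detected in VPA cultures and 153, 155 and 155 in control cultures. Over all probes the arrays detected 11439, 10922 and 10846 in VPA cultures and 11097, 10861 and 10913 in control cultures. The same comparison of groups was not counted over all genes.

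Among the members seen on at least 1 array of each group, the largest positive change was that of Zfp239, also called Mok2, which had 9.31, 8.36 and 8.47 in VPA cultures, against 7.71, 7.71 and 8.05 in control cultures. The groups did not overlap, but the log2 change of 0.89 ± 0.27 SE missed the threshold (adjusted p = 0.154 by limma), and without VPA replicate 1 it was 0.59. Zfp940 had 7.54, 6.94 and 6.76 in VPA cultures, against 6.20, 6.32 and 6.17 in control cultures. Its log2 change was 0.85 ± 0.22 SE (adjusted p = 0.099 by limma), and without the array that stood apart it was smaller, 0.62, and passed (adjusted p = 0.0284). Zfp941 had 7.62, 7.32 and 7.24 in VPA cultures, against 6.06, 6.97 and 6.68 in control cultures. Here the spread lay among the controls, and the adjusted p was 0.154 by limma. Zfp709 had 6.54, 6.46 and 6.45 in VPA cultures, against 5.85, 5.95 and 5.32 in control cultures. The SD was 0.048 over the VPA arrays and 0.34 over the controls (n = 3 each), and the gene missed the threshold (log2 change 0.78 ± 0.20 SE, adjusted p = 0.0926 by limma). Zfp2, cloned early as a mouse relative of the Drosophila gene Kruppel, had a log2 change of 0.64 ± 0.22 SE (adjusted p = 0.2 by limma), with groups that did not overlap. On the raw scale the groups overlapped for Zfp239, Zfp940, Zfp941, Zfp709 and Zfp2. VPA replicate 1, the dimmest array, had the highest normalized value for each of them. Its raw signal was the lowest of the 6 arrays for all but Zfp239.

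The most negative change was that of Zfp428, which had 6.61, 7.23 and 7.41 in VPA cultures, against 8.15, 8.14 and 7.79 in control cultures. All VPA arrays lay below all controls, and the gene was detected on all 6 arrays. The log2 change was -0.94 ± 0.24 SE, with a 95% interval of -1.50 to -0.39, and it missed the threshold (adjusted p = 0.0909 by limma) but passed without VPA replicate 1 at -0.71 (adjusted p = 0.0382). Zfp1, like Zfp2 an early Kruppel relative, had 5.43, 5.93 and 6.48 in VPA cultures, against 6.76, 6.73 and 6.93 in control cultures. The groups did not overlap, though VPA replicate 3 came close to the controls (log2 change -0.86 ± 0.26 SE, adjusted p = 0.154 by limma). Zfp553 had 5.97, 5.90 and 5.39 in VPA cultures, against 6.62, 6.37 and 6.19 in control cultures, and an adjusted p of 0.178 by limma. Zfp668, whose human counterpart takes part in DNA repair, had 5.54, 5.69 and 5.71 in VPA cultures, against 5.95, 6.26 and 6.45 in control cultures. Its groups did not overlap either, at a log2 change of -0.57 ± 0.17 SE (adjusted p = 0.153 by limma). The log2 changes of Zfp280c and Zfp619 were -0.47 ± 0.26 SE and -0.46 ± 0.19 SE, with adjusted p of 0.401 and 0.274 by limma, and that of Zfp280c was -0.18 without VPA replicate 1. Zfp553 was detected on 5 of the 6 arrays and Zfp619 on 3. The sizes for Zfp1, Zfp553 and Zfp619 thus rest in part on signals below detection. In the deposited log2 values the changes of the 6 genes higher and 6 genes lower described here from Zfp30 to Zfp619 were smaller, 0.15 to 0.59 in size, and 11 of the 12 were smaller by over 1.5 times. There Zfp709 was at 0.28, Zfp941 at 0.37, Zfp940 at 0.36, Zfp1 at -0.32 and Zfp668 at -0.20.

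**Figure D4:**
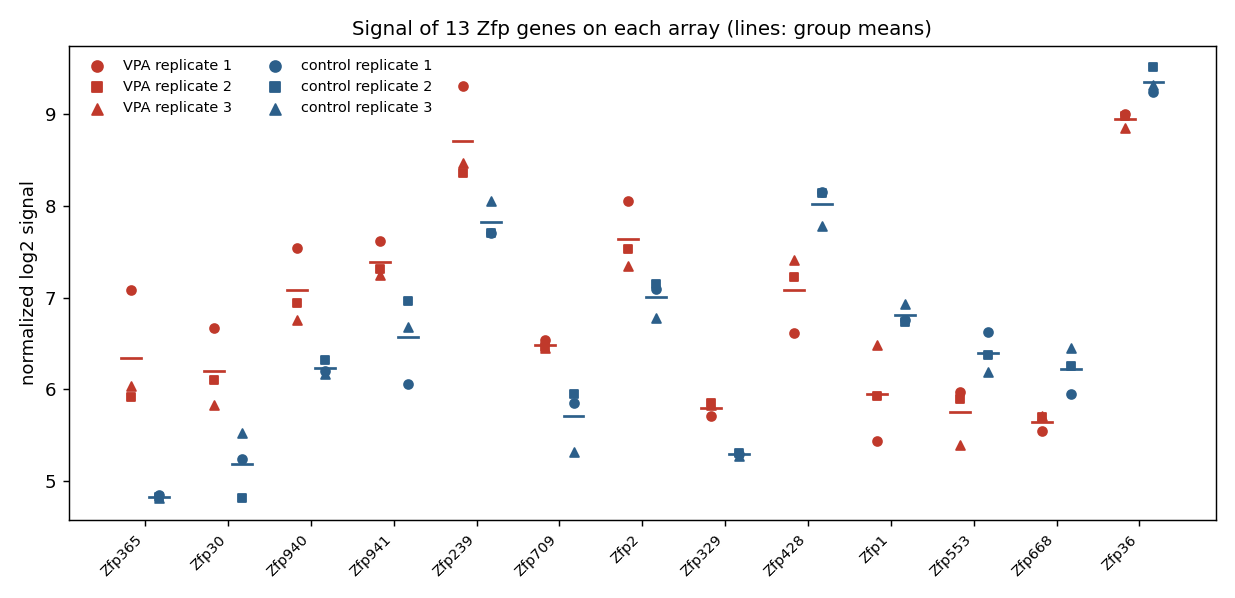
Normalized log2 signal of 13 Zfp genes on each array, VPA arrays left and control arrays right within each gene, with lines at the group means (n = 3). The groups of each gene shown do not overlap, and VPA replicate 1 is the VPA array farthest from the control mean for 10 of the 13, the exceptions being Zfp329, Zfp553 and Zfp36; signals of different genes come from different probes and cannot be set against each other.

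Members next to each other in the genome did not all behave alike. In the RefSeq order of protein-coding genes, 81 of the 163 members had another Zfp gene as an immediate neighbour. Their median log2 change was 0.06, with 14 members (17.3%) wholly above the controls and 8 (9.88%) wholly below. The 82 members without a Zfp neighbour had a median of -0.05, with 6 (7.32%) above and 8 (9.76%) below, and over all genes these shares were 16.7% and 11.2%. By limma 0 of the 81 and 1 of the 82, Zfp365, passed. In the run of Zfp30, Zfp790, Zfp940, Zfp420 and Zfp27 the log2 changes were 1.01, -0.28, 0.85, 0.54 and 0.27. All VPA arrays were above the controls for Zfp30, Zfp940 and Zfp27, while the groups overlapped for Zfp420 and for Zfp790, which lies between Zfp30 and Zfp940. Without VPA replicate 1 the values were 0.78, -0.15, 0.62, 0.30 and 0.18. The other run of 5 detected members, Zfp398, Zfp282, Zfp212, Zfp956 and Zfp777, had log2 changes of 0.54, -0.16, -0.01, 0.16 and -0.11, and 0 of these passed by limma. Without VPA replicate 1 its values were 0.28, -0.084, -0.028, 0.083 and -0.096. Both runs were chosen for their length after the values were seen.

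Of the 29 members that belong to the 8 role lists, 0 passed by limma in either direction, against 3.73% of all genes. An unadjusted p under 0.05 was reached by 1 that was higher (3.45%) and 2 that were lower (6.9%), against 11.5% and 5.59% of all genes. Without VPA replicate 1, Zfp809 and Zfp91 passed as lower, where 7.79% of all genes passed. At an unadjusted p under 0.05 in that fit, Zfp467, Zfp593 and Zfp281 were higher. Those lower were Zfp809, Zfp91, Zfp36, Zfp207, Zfp668 and Zfp532, while 14% of all genes were higher and 10.5% lower. The 2 CCCH genes measured had opposite signs. Zfp36, which encodes tristetraprolin, a factor that speeds the decay of cytokine messenger RNAs, had 9.01, 8.98 and 8.85 in VPA cultures, against 9.24, 9.51 and 9.32 in control cultures. The VPA arrays lay wholly below, at a log2 change of -0.41 ± 0.15 SE (adjusted p = 0.214 by limma). Zfp36l1, its close relative, had 11.02, 10.59 and 10.35 in VPA cultures, against 10.27, 10.27 and 9.95 in control cultures. These lay above the controls, at 0.49 ± 0.21 SE (adjusted p = 0.291 by limma) and at 0.31 without VPA replicate 1, but a second probe of Zfp36l1 gave a log2 change of 0.05 (adjusted p = 0.920). Of 20 transcripts with AU-rich elements, such as those of cytokines and early response genes, 12 were measured and 0 passed, with 3 higher at an unadjusted p under 0.05. The largest of them were Ier3, at 0.57 ± 0.21 SE (0.36 without VPA replicate 1), and Cdkn1a, at 0.49 ± 0.15, and the median was 0.16. Of 17 genes of the deadenylation and decapping machinery that these proteins recruit, 12 were measured, 0 passed by limma or at an unadjusted p under 0.05, and the median log2 change was -0.10.

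Genes known as regulators in stem and blood cells gave 9 measured members of 11 listed. With all 6 arrays 0 of them passed by limma or at an unadjusted p under 0.05. Without VPA replicate 1, Zfp467 moved from 0.17 to 0.45 (unadjusted p = 0.012, adjusted p = 0.0939 by limma). In that fit Zfp281 was at 0.36 (unadjusted p = 0.0203, adjusted p = 0.123 by limma). The other measured members of the list did not reach an unadjusted p under 0.05 there. Zfp521, a cofactor of stem cells and early B cells, had 7.26, 7.91 and 8.07 in VPA cultures, against 8.13, 8.21 and 7.72 in control cultures. The groups overlapped, and the log2 change of -0.27 ± 0.25 SE became -0.03 without VPA replicate 1. Zfp281, known from embryonic stem cells, was at 0.25 ± 0.16 SE, Zfp366, which encodes the dendritic cell factor DC-SCRIPT, at -0.28 ± 0.28 SE (-0.004 without VPA replicate 1) and Zfp609, a partner of the cohesin loader Nipbl, at -0.53 ± 0.43 SE. For Zfp609, VPA replicate 1 was at 5.13 beside 6.75 and 6.84 on the other VPA arrays, and 6.67 to 6.85 on the controls, and without it the log2 change was 0.03.

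Of the 9 listed genes of imprint and retroelement silencing, 1 was measured. Zfp809, which silences mouse leukemia viruses through their primer binding site, had 6.50, 5.56 and 5.24 in VPA cultures, against 6.33, 6.52 and 6.20 in control cultures. VPA replicate 1 lay among the controls and the other VPA arrays below all of them. Zfp809 was detected on VPA replicate 1 and on all control arrays. It was not detected on VPA replicates 2 and 3, where its raw signals were 139 and 136. The log2 change was -0.58 ± 0.32 SE (adjusted p = 0.399 by limma), and -0.95 (adjusted p = 0.0136) without VPA replicate 1. That second value sets detected controls against VPA signals below detection, so its size is not a measured VPA level. Of 16 corepressor partners of KRAB proteins, 12 were measured, and 0 passed by limma, against 3.73% of all genes. At an unadjusted p under 0.05, 0 were higher and 0 lower, against 11.5% and 5.59% of all genes. Trim28 had log2 values of 12.93, 12.88 and 12.89 in VPA cultures, against 12.94, 13.04 and 13.04 in control cultures, and its interval of -0.42 to 0.21 left out a change of 1.5-fold. Setdb1 was at -0.15 ± 0.19 SE, and the median over the list was -0.18. The greatest size was that of Sumo2, at -0.72 ± 0.34 SE (adjusted p = 0.330 by limma), with -0.32 without VPA replicate 1. In that fit the median of the list was -0.11, Setdb1 was at -0.27 and again 0 passed by limma, against 7.79% of all genes. The greatest size there was that of Cbx5, at -0.64 ± 0.17 SE (adjusted p = 0.064 by limma), the 1 partner at an unadjusted p under 0.05. Over all genes 14% were higher and 10.5% lower at that unadjusted p in the same fit.

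The genes of ribosome and translation control gave 2 measured members. Zfp598, the ubiquitin ligase that marks collided ribosomes, was at 0.003 ± 0.15 SE, with an interval of -0.35 to 0.36 and a value of -0.036 without VPA replicate 1, and Zfp593, linked through its yeast counterpart to assembly of the large ribosomal subunit, at -0.22 ± 0.44 SE, or 0.35 without VPA replicate 1. All 4 listed genes of RNA binding and splicing were measured and 0 passed by limma, against 3.73% of all genes. At an unadjusted p under 0.05, 0 were higher and 0 lower, against 11.5% and 5.59% of all genes. Zfp638 had 7.93, 9.75 and 10.10 in VPA cultures, against 9.91, 9.95 and 9.97 in control cultures. VPA replicate 1 lay far below the controls, VPA replicate 2 just below and VPA replicate 3 just above them, and without VPA replicate 1 the log2 change of -0.68 ± 0.51 SE was -0.02. Zfp106, Zfp326 and Zfp346, the last a protein that binds double-stranded RNA, were at 0.02 ± 0.24 SE, -0.09 ± 0.16 SE and -0.12 ± 0.19 SE, and without VPA replicate 1 at -0.21, -0.016 and 0.052.

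Of 9 partners of chromatin complexes and DNA repair 7 were measured and 0 passed with all 6 arrays, against 3.73% of all genes. Zfp668 was lower at an unadjusted p under 0.05, as were 5.59% of all genes. Zfp687, which with Zfp592 and Zfp532 binds the chromatin reader Zmynd8, had 5.20, 7.12 and 7.27 in VPA cultures, against 7.13, 7.24 and 7.37 in control cultures. Again VPA replicate 1 lay far below the other arrays, and the log2 change of -0.72 ± 0.51 SE was -0.06 without it. Zfp91, whose human counterpart is a ubiquitin ligase of the noncanonical NF-kB kinase NIK, had 7.75, 6.72 and 7.02 in VPA cultures, against 7.84, 7.46 and 7.62 in control cultures. Here VPA replicate 1 was the array closest to the controls, and the log2 change of -0.48 ± 0.27 SE (adjusted p = 0.414 by limma) was -0.77 without it (adjusted p = 0.0318). Zfp532 was at -0.22 ± 0.21 SE, and at -0.41 without VPA replicate 1. Of the general promoter factors, Zfp219 and Zfp131 were measured, at -0.31 ± 0.17 SE, or -0.17 without VPA replicate 1, and -0.04 ± 0.14 SE. Of the genes of mitosis and pluripotency, Zfp207, which loads Bub3 onto kinetochores, was at -0.28 ± 0.16 SE. Zfp296 was at 0.10 ± 0.18 SE, or 0.19 without VPA replicate 1. With all 6 arrays 0 of these 4 genes passed by limma or at an unadjusted p under 0.05. Without VPA replicate 1, Zfp207 was at -0.39 (unadjusted p = 0.0146, adjusted p = 0.105 by limma).

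The 5 members with the brightest probes in control cultures were Zfp362, Zfp330, Zfp263, Zfp212 and Zfp608. Their log2 changes were -0.07 ± 0.14 SE, 0.08 ± 0.14 SE, -0.42 ± 0.34 SE, -0.01 ± 0.13 SE and 0.04 ± 0.14 SE. In 4 of the 5 the interval left out a change of 1.5-fold, and for Zfp263 VPA replicate 1 was at 9.74 beside 10.91 and 11.08, with a log2 change of -0.001 without it. Without VPA replicate 1 the values of Zfp330, Zfp212 and Zfp608 were 0.041, -0.028 and 0.010. Brightness depends on the probe and does not rank the transcripts.

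More than 1 probe was detected for 33 members, which gave 38 further probes. Of these, 34 had a log2 change within 0.5 of the brightest probe and 24 had its sign, and 0 passed by limma. The 2 further probes of Zfp709 gave 0.62 and 0.41, beside 0.78 from the brightest. A further probe of Zfp553 gave 0.05 beside -0.64, and one of Zfp654 gave -0.64 beside -0.04. Those of Zfp87 and Zfp692 had the opposite sign, at -0.12 beside 0.50 and -0.33 beside 0.18. Zfp654, Zfp87, Zfp692, Zfp277, Zfp316, Zfp446 and Zfp410 were chosen here after their values were seen. Zfp277, Zfp316 and Zfp446 had 2 probes each with groups that did not overlap. Their log2 changes were 0.46 and 0.46 for Zfp277, which works with Polycomb proteins, 0.49 and 0.54 for Zfp316, and -0.41 and -0.40 for Zfp446. The brightest probes of Zfp277, Zfp316 and Zfp87 gave 0.29, 0.28 and 0.30 without VPA replicate 1, and that of Zfp654 gave -0.25. For Zfp410, known as an activator of the nucleosome remodeller gene Chd4, 3 probes gave -0.45, -0.18 and -0.16, beside -0.17 ± 0.14 SE for Chd4.

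**Figure D5:**
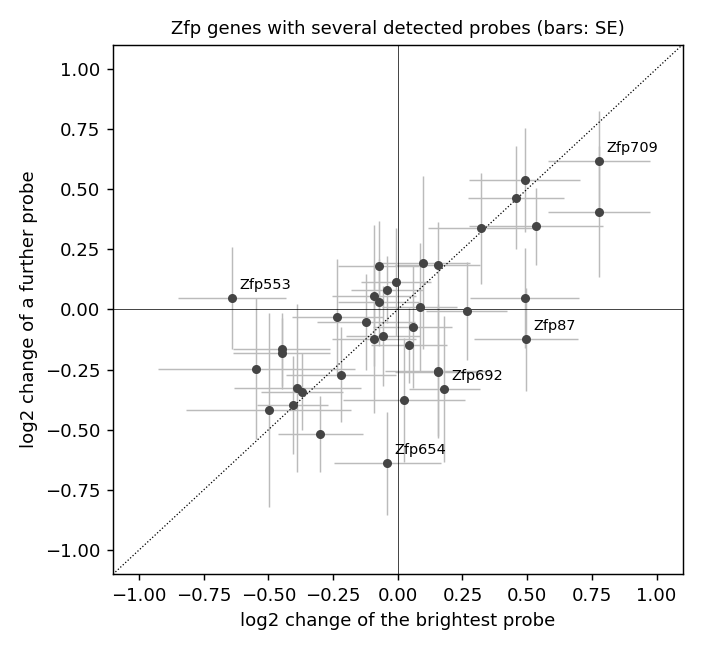
Log2 change of the brightest probe (x axis) and of each of 38 further detected probes (y axis) for 33 Zfp genes, with SE bars (n = 3 arrays per group) and a dotted line of equal values. Of the 38 probes, 34 lie within 0.5 of the line of equal values, and the other 4, of Zfp553, Zfp654, Zfp87 and Zfp692, lie farther from it.

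Other zinc finger families were counted in the same way. Over all genes 3.73% passed by limma, and at an unadjusted p under 0.05 11.5% were higher and 5.59% lower. Of 17 measured Zbtb genes 0 passed by limma, with 3 lower at an unadjusted p under 0.05 and a median log2 change of -0.23. Of 9 Zscan and Zkscan genes 0 passed by either measure (median -0.12), and of 12 Zc3h genes likewise 0 (median -0.09). Of 11 Klf and Sp genes 0 passed by limma and 3 reached an unadjusted p under 0.05, each of them higher, with Klf9 at 0.64 ± 0.15 SE (adjusted p = 0.0754) and a median of 0.15. Of 12 Zdhhc genes, which encode palmitoyl transferases, Zdhhc14 rose 2.04-fold (log2 change 1.03 ± 0.21, adjusted p = 0.049 by limma). Of 5 Zfyve, 2 Zmym and 3 remaining finger genes 0 passed by limma or at an unadjusted p under 0.05, with medians of 0.08, 0.03 and 0.12. Without VPA replicate 1, Zbtb9 passed as lower at -0.75 ± 0.13 SE (adjusted p = 0.0147 by limma), Klf5 and Klf9 as higher at 0.64 ± 0.14 SE each (adjusted p = 0.037 and 0.0376), and Zdhhc14 at 0.81 ± 0.12 SE (adjusted p = 0.00968). These were 1 of 17 Zbtb, 2 of 11 Klf and Sp and 1 of 12 Zdhhc genes. Zbtb9 was detected on all control arrays but on 1 VPA array only, with VPA values of 6.62, 5.26 and 5.33. Its fit thus included VPA signals below detection, so its size is not a measured VPA level. In the same fit 6.2% of all genes passed as higher and 1.59% as lower. The median of the Zbtb genes was then -0.028 and that of the Zc3h genes 0.053.

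Of the 117 Zfp genes that were not members, 94 were detected on 0 arrays, 15 on 1 and 8 on 2. Detected genes made up 58.2% of the Zfp genes and 48% of all 16593 named genes. Just inside the rule, the highest of the 3 lowest detection p-values was 0.0489 for Zfp619 and 0.0414 for Zfp366, and just outside it this value was 0.0501 for both Zfp473 and Zfp663. Of the members, 133, or 81.6%, were detected on all 6 arrays, as were 85.8% of all genes tested, and of these 0 passed by limma, against 2.98% of all genes detected on all 6. At an unadjusted p under 0.05, the 133 held 11 higher and 5 lower genes, 8.27% and 3.76%, against 10.8% and 5.18% of all genes detected on all 6.

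The labelled cell type was checked on 14 marker genes of stem and progenitor cells, of which 10 were measured and detected on all control arrays, among them Cd34, Gata2, Meis1 and Cd27. By limma 0 of them passed, against 3.73% of all genes, and 8 of the 10 were detected on all VPA arrays. At an unadjusted p under 0.05 Procr alone was lower and 0 were higher, against 5.59% and 11.5% of all genes. Procr was detected on control arrays alone, so the detection rule already required it to differ. Their summed normalized signal was 15725 to 19804 in VPA cultures and 17014 to 19184 in control cultures. Markers of other cells were also present. The summed normalized signal of 9 of 11 granulocyte markers was 44593 to 76482 in VPA cultures and 54401 to 82849 in control cultures, with 0 past the threshold. At an unadjusted p under 0.05, 4 of the 9 were lower with VPA, against 5.59% of all genes, and 0 were higher, against 11.5%. Those lower were Camp at -1.37, Ngp at -1.34, Mpo at -0.81 and Prtn3 at -0.75. Without VPA replicate 1 again 4 were lower, against 10.5% of all genes. The median log2 change of the list was -0.45, or -0.70 without VPA replicate 1. The summed normalized signal of 4 of 6 mast cell and basophil markers was 382 to 505 in VPA cultures and 599 to 775 in control cultures. Cpa3 passed the threshold, lower at -1.54, Fcer1a was at -0.68 (adjusted p = 0.0506 by limma, or 0.0119 without VPA replicate 1), Mcpt8 at -0.78, or -0.31 without that array, and Prss34 at 0.97, with all VPA arrays above the controls. Of the monocyte markers 2 of 7 were measured, Mrc1 lower at -1.66 and past the threshold and Adgre1 at 0.78 with groups that overlapped. Of the erythroid markers 3 of 7 were measured, and Epor was higher at a fitted 0.78 (adjusted p = 0.0299 by limma). Epor was detected on VPA arrays alone, so the detection rule already required it to differ. Hba-a1 and Klf1 were at 0.24 and 0.21, with groups that overlapped. B cell, T and NK cell and megakaryocyte markers gave 2 of 6, 2 of 8 and 3 of 5 measured genes and 0 past the threshold, and the T cell genes Cd3e, Cd3g, Cd3d, Cd4 and Cd8a were among those below the detection rule. The part of these cells in the Zfp values was not tested.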

How the data were processed

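Total RNA of 6 cultures was hybridised as biotin-labelled cRNA to single-colour Illumina BeadChips. Per the file headers, the deposited table holds raw signal intensity and a detection p-value for 25697 probes on each array, with GenomeStudio named in the submitters' processing notes. A second deposited table holds log2 values on a common distribution, by a method not given in the sources used here, and served as an alternative. Signals were normalized with neqc (offset 16) in limma 3.58.1 under R 4.3.3. The 11115 probes detected on 3 or more arrays, 201 of them for Zfp genes, were fitted with lmFit and eBayes, and p-values were adjusted by Benjamini-Hochberg over all of them. Errors are SE of the log2 change, and intervals are 95% intervals of the same fit. Precision is set by the number of arrays, and an exact permutation test of 1 gene, 3 against 3, cannot go below 0.1. The labels call the replicates independent biological samples.

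Gene symbols came from GEO's platform annotation, and all 163 members matched RefSeq by gene identifier. Named genes are members past the threshold, the 6 largest changes in each direction with groups that do not overlap, up to 4 genes per role list, the brightest 5 and dimmest 3 members, members detected in 1 group only, genes whose probes disagree in their calls and those at the edge of the detection rule. The members and lists were chosen with earlier results of these data known. Planned features of the proteins were not analysed here. The alternatives were other background corrections, scaling, filters, variance models, thresholds and probe choices, weights per array, the replicate number as a block and each array left out. Those without VPA replicate 1 in the normalization, or in the counts of intervals, were added after seeing the data. The steps were tested on simulated signals that had the spread of the control arrays on all 6 arrays. That test did not cover an array that stands apart as VPA replicate 1 does.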

Additional observations from a re-analysis of the deposited data

How the results depend on the processing

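The count of 1 Zfp gene past the threshold, 1 higher and 0 lower, was the same with median scaling, an intensity trend, the mean of a gene's probes, a 2-fold minimum and the replicate block. It was 0 without background correction, with an offset of 50, in the deposited values, with detection on all 6 arrays, with no detection filter and at an adjusted p of 0.01, and 4 at 0.1. With each array left out in turn it ranged from 0 to 7, the 7 without VPA replicate 1, also when that array was dropped before normalization. Leaving out VPA replicate 3 gave 1 gene, Zfp1, lower. With array weights it was 47, 23 higher and 24 lower, or 28.8% against 31.3% of all genes. Those weights ran from 0.09 for VPA replicate 1 to 12.96 for VPA replicate 2, and their iteration stopped short of its tolerance. With the replicate number as a block the median was -0.007 as before. Numbered pairs of arrays correlated in their deviations at 0.13, -0.06 and 0.05, so the numbers were not taken to pair the cultures. The median log2 change of the members moved to -0.25 with median scaling, which also moved the median of all genes to -0.29.

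Of 652 values of named members under the alternatives 32 had the opposite sign, and 0 of the 32 belonged to a call. With median scaling these were Zfp106 at -0.23, Zfp281 at -0.13, Zfp296 at -0.25, Zfp330 at -0.21, Zfp598 at -0.24 and Zfp608 at -0.29. With array weights they were Zfp106 at -0.12, Zfp326 at 0.012, Zfp346 at 0.053, Zfp366 at 0.067 and Zfp593 at 0.31. With VPA replicate 1 dropped before normalization they were Zfp106 at -0.22, Zfp346 at 0.052, Zfp593 at 0.35, Zfp598 at -0.036 and Zfp609 at 0.026. With each array left out in turn the log2 change ranged from -0.21 to 0.20 for Zfp106, -0.077 to 0.015 for Zfp131, -0.028 to 0.021 for Zfp212 and -0.21 to 0.052 for Zfp346. It ranged from -0.53 to 0.35 for Zfp593, -0.077 to 0.070 for Zfp598, -0.022 to 0.080 for Zfp608 and -0.83 to 0.026 for Zfp609, and for Zfp593, Zfp346 and Zfp609 the positive end was without VPA replicate 1. With the mean of probes Zfp106 was at -0.18, Zfp131 at 0.021 and Zfp212 at 0.053. In the deposited values 23 of 39 named members had a log2 change over 1.5 times smaller than the one reported. The cause of these moves was not tested. Over all genes, the count past the threshold, 272 higher and 25 lower, moved by over 1.5 times with median scaling (111 and 20), array weights (1365 and 1128), the replicate block (178 and 13), and without VPA replicate 1 (494 and 127), VPA replicate 2 (124 and 12) or control replicates 1, 2 and 3 (54 and 5, 74 and 8, 73 and 5).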
